A study of Mus musculus with 3 samples.

Results

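The genes of adenosine and purinergic signaling described here are 9 of the 34821 gene names on the array. These comprise 3 receptors for adenosine (Adora2a, Adora2b, Adora3), 3 receptors for extracellular nucleotides (P2rx4, P2rx7, P2ry6), and 3 enzymes of the route from ATP through adenosine to inosine (Entpd1, Nt5e, Ada). They were chosen by name, as every probe of the array annotated with 1 of these symbols, which gave 14 probes. The probes were read in bone marrow-derived macrophages (BMDMs), cells that grow out of mouse bone marrow in the presence of M-CSF, here from C57BL/6J mice and with M-CSF from medium of L929 cells that express it. Cultures were stimulated for 20 h with CpG, a DNA ligand of TLR9, with IFN-γ + αIL-10R, an antibody that blocks the IL-10 receptor, or with all these agents (Triple), and total RNA of each condition was hybridized to 1 array in 1 colour. Every culture received a stimulus and IFN-γ was given only with αIL-10R, so that neither an unstimulated level nor the part of either agent in IFN-γ + αIL-10R was measured.

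ATP that leaves activated or damaged cells is sensed by P2X receptors, which are ion channels opened by ATP, and by P2Y receptors, which are coupled to G proteins and bind different nucleotides. Ectonucleotidases on the cell surface remove the phosphates stepwise, CD39 from ATP and ADP and CD73 from AMP, and the adenosine that is formed acts on receptors that raise or lower cAMP until it is taken up or deaminated. In macrophages, ATP acting on P2X7 is a classical trigger of the NLRP3 inflammasome, and adenosine acting through receptors coupled to Gs is known to dampen the production of inflammatory cytokines.

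Values are the deposited processed signal, an intensity on a linear scale, given in the order IFN-γ + αIL-10R, CpG, and Triple, and folds were taken after each array was scaled to its 75th percentile. A gene was called higher or lower if it differed more than 2-fold and was well above background, by the scanner software's flag, in the brighter array. With 1 array per condition there is no replicate check and no test between conditions, so every fold below describes 3 arrays. Probes with replicate spots gave a technical SD of 0.13 for a log2 fold between 2 single spots (0.30 for signals under 100), which leaves out differences between cultures. The arrays were alike in the share of spots well above background (44.4% to 46.0%), had no saturated spot, and were on 1 slide with 1 scan time, each condition at its own position. All 10 genes listed as a check of the IFN-γ label were lower with CpG than with IFN-γ + αIL-10R, and 9 were higher in Triple than with CpG. The exception, Ciita, gave 258, 114, and 63.3, and was 3.97-fold lower in Triple than with IFN-γ + αIL-10R. All 10 listed for TLR ligands were higher in Triple than with IFN-γ + αIL-10R. With CpG, 6 of the TLR list were higher than with IFN-γ + αIL-10R, Ptgs2 was 3.66-fold lower, Tnf and Tnfaip3 were inside 2-fold, and Il1a was not well above background on either array. All 7 macrophage markers were well above background on every array, with a summed signal of 564897, 710508, and 542067. The sum hides single markers that ran in opposite directions. Log2 folds past 2-fold were 4.07 (Cd14) and −1.16 (Cd68) in Triple against IFN-γ + αIL-10R. In CpG against IFN-γ + αIL-10R they were 3.30 (Cd14), 1.46 (Lyz2), 1.33 (Itgam), and −1.31 (Mertk). In Triple against CpG they were 2.02 (Mertk) and −1.13 (Lyz2). Emr1 and Csf1r were inside 2-fold in every comparison.

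Markers of other cells are given because some differed between the arrays. None of the 4 erythroid genes was well above background on any array. Of 5 T cell genes, Cd3e (869, 858, and 806) and Cd4 (1943, 1646, and 1817) were well above background on every array, whereas Cd3d, Cd3g, and Cd8a were on none, and the list summed to 2830, 2530, and 2640. The B cell list (2 of 4 genes well above background, Cd79a and Cd79b) summed to 270.3, 879, and 169.8. The neutrophil list (2 to 3 of 5) summed to 9353, 3489, and 4348, and its genes ran differently. Ly6g was highest with IFN-γ + αIL-10R (7699, 555, and 2658), as were Adora3, P2rx7, Entpd1, Ada, and, by little, P2ry6. Elane was highest with CpG (1615, 2839, and 1539). Camp was highest in Triple (17.5, 72.9, and 139), as were Adora2a, Adora2b, and, at its brighter probe, P2rx4. Mpo and Ltf were not well above background. The fibroblast list (2 to 3 of 4) summed to 333, 581, and 765, an order set by Dcn (16.4, 80.6, and 342). Col1a1 was highest with CpG (94.5, 177, and 98.3), Col1a2 was alike with CpG and in Triple (216, 317, and 319), and Pdgfra was not well above background. Of 4 dendritic cell genes (1 to 3 well above background, sum 36043, 36120, and 29943), Zbtb46 was 3.75-fold and Xcr1 at least 2.33-fold higher in Triple than with IFN-γ + αIL-10R, Siglech gave 35974, 36076, and 29736, and Flt3 was not well above background. Of 4 mast cell and basophil genes, Kit alone was well above background, with CpG (93.9) and in Triple (48.4). The part of these cells in the differences below was not tested. Within bulk RNA, fewer cells that express a gene and less of its RNA per cell cannot be told apart.

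At least 1 array detected 8 of the 9 genes, and none detected Nt5e. Compared with IFN-γ + αIL-10R, Triple gave higher signals for 3 genes, Adora2a, Adora2b, and P2rx4, where 3.55% of the 34813 genes tested were called higher, and lower signals for 4, Adora3, P2rx7, Entpd1, and Ada, where 5.01% were called lower. CpG alone gave higher signals for 2 of them, Adora2a and Adora2b (2.74% of all genes), and lower signals for 3, Adora3, Entpd1, and Ada (3.19%). Triple differed from CpG in 3 genes, with Adora2a and Entpd1 higher (4.12% of all genes) and P2rx7 lower (4.58%). Among all genes well above background in at least 1 array of the comparison these shares were 6.59% and 9.3%, 5.03% and 5.86%, and 7.54% and 8.37%, in the same order. With Adora2a at its bound, the median log2 fold of the 8 genes was −0.73 in Triple against IFN-γ + αIL-10R, −0.29 in CpG against IFN-γ + αIL-10R, and 0.29 in Triple against CpG, compared with −0.04, 0.01, and −0.06 over all genes detected in the same way. All 3 comparisons share arrays, so that an error in 1 array enters a pair of them. The members, and the lists used below, were chosen with earlier results of these data known. The shares are therefore a background and no test of the set.

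**Figure D1:**
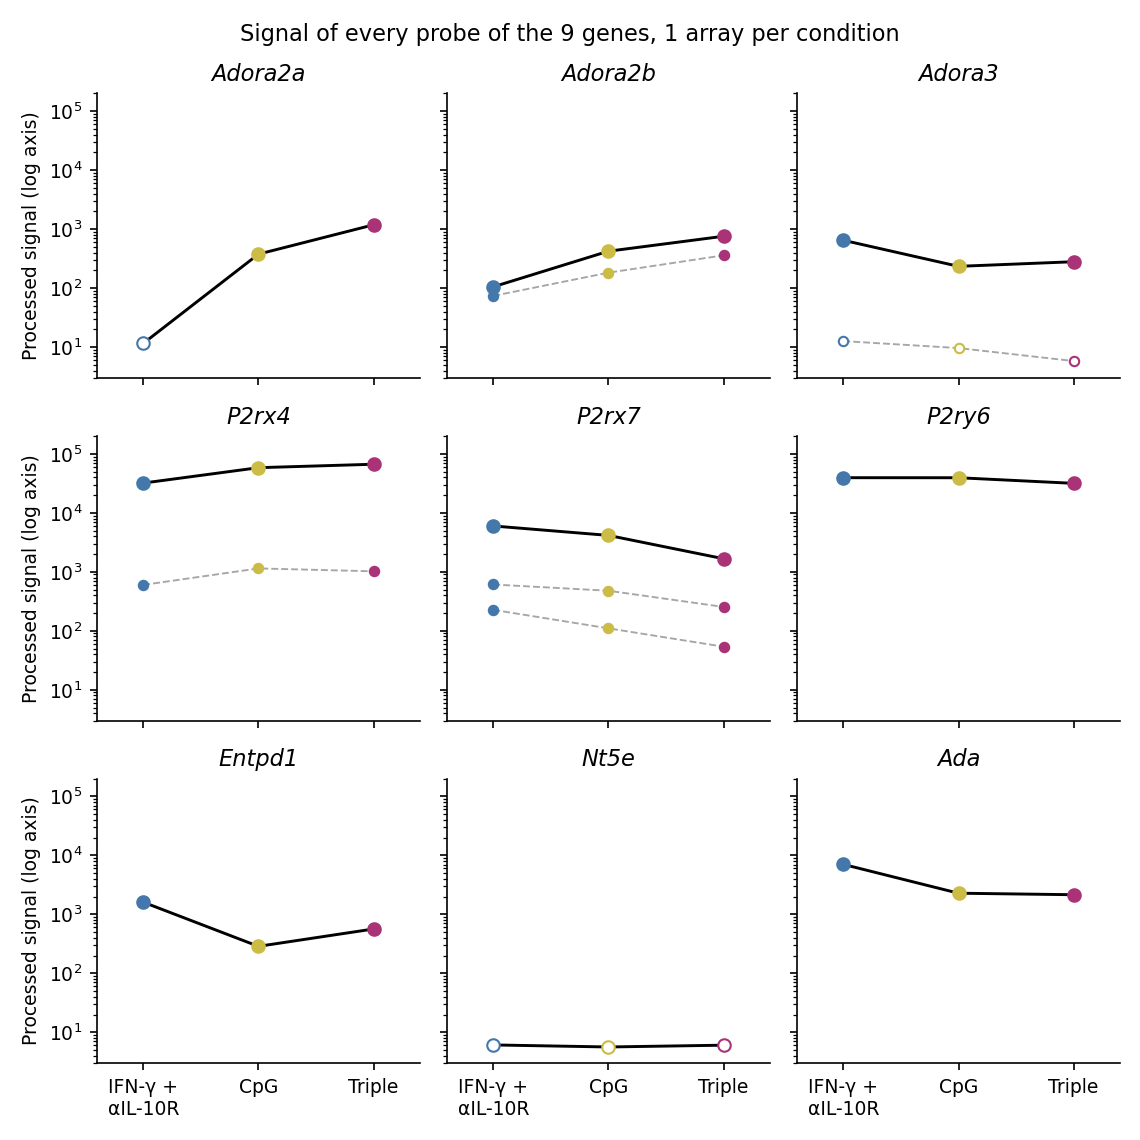
Processed signal (log axis) of every probe of the 9 genes on the 3 arrays, with 1 array per condition and no error bar. The black line is the probe that represents the gene, dashed lines are other probes, lines only join the probes' values, and open circles are not well above background. At the probe that represents the gene, Adora2a, Adora2b, and P2rx4 are highest in Triple (1188, 760.0, and 66598). The other P2rx4 probe is highest with CpG (1141, and 1019 in Triple). Adora3, P2rx7, Entpd1, and Ada are highest with IFN-γ + αIL-10R (649, 5979, 1609, and 7035), and Nt5e is at 5.65 to 6.11.

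**Figure D2:**
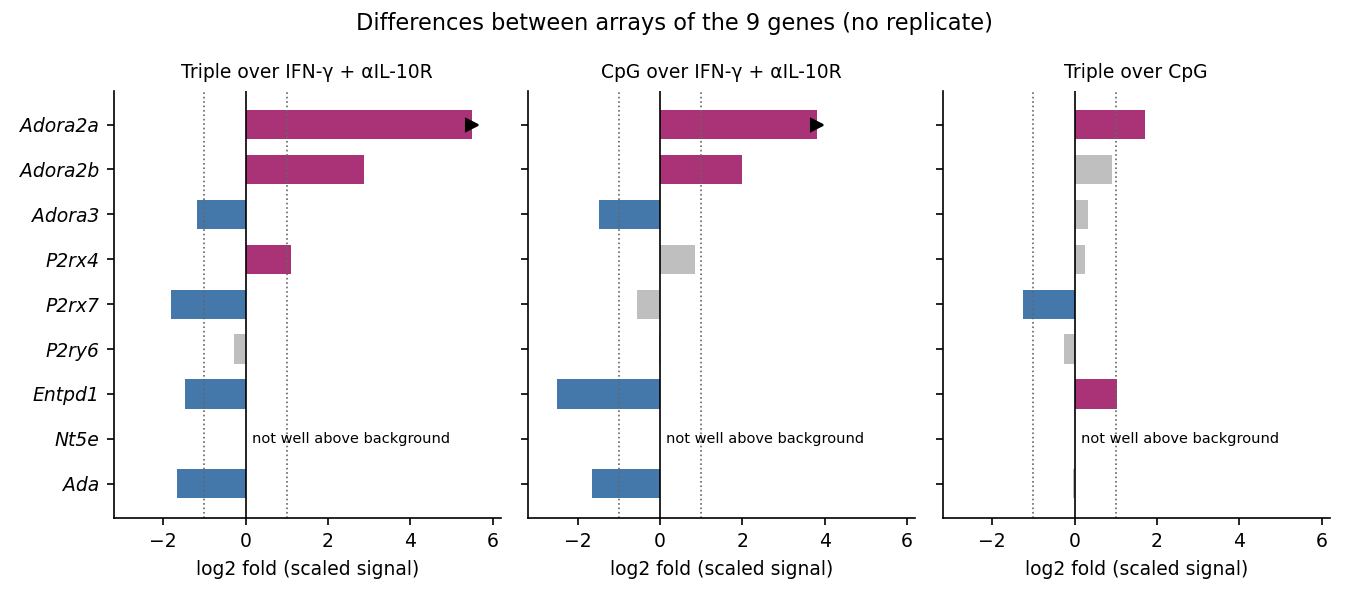
Log2 folds of the 9 genes in the 3 comparisons, with dotted lines at 2-fold, coloured bars past it, grey bars inside it, and a black arrowhead where the fold is a lower bound. Triple against IFN-γ + αIL-10R runs from at least 5.51 for Adora2a to −1.81 for P2rx7.

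The plots of signals and of log2 folds show the receptors coupled to Gs with their highest signal in Triple. Adora2a encodes an adenosine receptor that couples to Gs and raises cAMP. Its single probe (chromosome 10, 74797461 to 74797520 on mm9, + strand) gave a signal of 11.6 with IFN-γ + αIL-10R, which was not well above background, 378 with CpG, and 1188 in Triple. The level was thus at least 45.7-fold higher in Triple than with IFN-γ + αIL-10R. CpG lay above IFN-γ + αIL-10R, where the lowest signal well above background was 26.7, by a log2 fold of at least 3.80. These bounds hold for the processing used here, and normexp background correction gave smaller log2 folds of 3.61 in Triple and 2.13 with CpG. Triple was 3.27-fold above CpG (log2 fold 1.71). The span of at least 5.51 (log2) over the arrays was larger than that of 99.6% of all genes detected on at least 1 array. The probe lies in row 383 of 384, and the software marked its local background as an outlier on all 3 arrays. The processed signal does not use that local background, and the spot itself carried no mark, but leaving out such spots as well would leave Adora2a without a value. The choice to keep such spots was made after the value of Adora2a had been seen. The lines here and below give the first 30 of the 60 bases of the probes that were read, 5′ to 3′, to show what each signal stands for.

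Adora2a: gcttgtttgtttgtttgtgttttattttcc

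Adora2b encodes the other adenosine receptor coupled to Gs, which needs higher concentrations of adenosine. Its brighter probe (chromosome 11, 62079834 to 62079893 on mm9, + strand) gave 106 with IFN-γ + αIL-10R, 424 with CpG, and 760.0 in Triple. Triple was 7.38-fold and CpG 3.96-fold above IFN-γ + αIL-10R (log2 folds 2.88 and 1.98), and Triple was 1.87-fold above CpG, inside the threshold. The other probe, 62078754 to 62078813 on the same strand, gave 74.1, 183, and 361. It kept the order of the arrays, with smaller log2 folds of 2.32 (Triple) and 1.29 (CpG) over IFN-γ + αIL-10R. Triple against CpG was 1.03, just past 2-fold.

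Adora2b, brighter probe: ctgggttttgcttctcttccacattaaagt
Adora2b, dimmer probe: gtggtccccatgagctacatggtgtatttc

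Promoter windows, 250 bases before to 50 after a transcription start in RefSeq (GRCm38.p6), were given for 7 of the 9 genes. The windows were searched on both strands for GAS (TTCNNNGAA), the IFN-γ-activated site, the interferon-stimulated response element (ISRE), AP-1 (TGANTCA), the core of the cAMP response element (TGACG), the core of the hypoxia response element (ACGTG), and the NF-κB consensus. Of the 32851 windows in the table, 8.30%, 3.44%, 7.81%, 20.8%, 19.6%, and 8.46% held these motifs, in that order. A match is a run of letters and no evidence of binding, and these arrays measured no binding. The window of Adora2b held none of the 6. Its 200 bases before the start, chr11:62248784-62248983 on the + strand, are shown because Adora2b had the largest measured fold among the genes with a window.

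Adora2b: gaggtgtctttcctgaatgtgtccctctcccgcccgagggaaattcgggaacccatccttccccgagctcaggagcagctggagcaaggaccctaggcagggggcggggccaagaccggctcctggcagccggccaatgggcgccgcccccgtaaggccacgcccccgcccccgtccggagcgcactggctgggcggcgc

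Adora3 encodes an adenosine receptor that couples to Gi and lowers cAMP. It ran the other way, with signals of 649 with IFN-γ + αIL-10R, 235 with CpG, and 281 in Triple (chromosome 3, 105711212 to 105711271 on mm9, + strand). CpG was 2.81-fold and Triple 2.25-fold below IFN-γ + αIL-10R (log2 folds −1.49 and −1.17), and Triple and CpG differed by a log2 fold of 0.32. Normexp background correction brought the fold of Triple, and the mean of both probes named Adora3 that of CpG, inside 2-fold (−0.98 and −0.95). The other probe with this name is annotated to an accession that RefSeq now names Tmigd3, and was not well above background on any array (5.82 to 12.7). The promoter window of Adora3 held 1 AP-1 match, which starts 98 bases before the start and is in capitals in the 200 bases upstream, chr3:105904221-105904420 on the + strand.

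Adora3: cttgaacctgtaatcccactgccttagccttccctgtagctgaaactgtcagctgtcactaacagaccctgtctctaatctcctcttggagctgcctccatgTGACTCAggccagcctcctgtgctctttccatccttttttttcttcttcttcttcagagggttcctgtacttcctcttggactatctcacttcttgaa

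Adora1, the adenosine receptor of the family that is not among the 9 genes, was not well above background on any array (5.03 to 5.54). The adenosine receptors that were detected therefore divided, with the pair coupled to Gs lowest and the receptor coupled to Gi highest on the IFN-γ + αIL-10R array. Scaling did not change these directions.

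The nucleotide receptors also divided. P2rx4 encodes an ATP-gated cation channel found largely on lysosomes of macrophages. Its brighter probe (chromosome 5, 123178983 to 123179042 on mm9, + strand) gave 31926 with IFN-γ + αIL-10R, 58210.1 with CpG, and 66598 in Triple. Triple was 2.14-fold above IFN-γ + αIL-10R, CpG was 1.80-fold above it, and Triple and CpG differed by a log2 fold of 0.25. The dimmer probe, 123179545 to 123179604, gave 599, 1141, and 1019 and log2 folds of 0.80 and 0.91 over IFN-γ + αIL-10R, both inside 2-fold, so that the call of P2rx4 rests on the brighter probe. The promoter window of P2rx4 held the cAMP response core at a pair of places, 178 and 57 bases before the start, on the opposite strand and in capitals in the 200 bases upstream, chr5:122707344-122707543.

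P2rx4: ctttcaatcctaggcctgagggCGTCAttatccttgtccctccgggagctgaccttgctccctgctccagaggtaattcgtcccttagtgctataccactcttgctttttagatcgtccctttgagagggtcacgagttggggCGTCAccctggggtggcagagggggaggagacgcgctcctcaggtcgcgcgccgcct

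P2rx7 encodes the ATP-gated channel upstream of the NLRP3 inflammasome, and its probes lie on the same chromosome upstream of those of P2rx4. Signals were 5979 with IFN-γ + αIL-10R, 4141 with CpG, and 1664 in Triple at the brightest of its 3 probes (123134194 to 123134253). Triple was 3.50-fold below IFN-γ + αIL-10R and 2.39-fold below CpG (log2 folds −1.81 and −1.26), whereas CpG was 1.47-fold below IFN-γ + αIL-10R, inside the threshold. The dimmer probes are annotated to other RefSeq transcripts. The next brightest (123105174 to 123105233) gave 609, 477, and 254, and the dimmest (123120528 to 123123413, a span longer than the probe) gave 226, 110.0, and 53.7. All 3 probes were lowest in Triple and highest with IFN-γ + αIL-10R. Their log2 folds in Triple against IFN-γ + αIL-10R were −1.81, −1.23, and −2.04, all past 2-fold, and in Triple against CpG −1.26, −0.85, and −0.98, of which only the first was past it. CpG against IFN-γ + αIL-10R was past 2-fold at the dimmest probe alone (−1.06). Of a pair of promoter windows of P2rx7, the upstream one held 1 AP-1 match at its upstream end, and the other held none of the motifs. The sequences show that the 3 probes read different stretches of P2rx7.

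P2rx7, brightest probe: ttcacttctctctttaaagggaaccatctt
P2rx7, next brightest probe: ggtcaaaaagctccccaatccatgcaacaa
P2rx7, dimmest probe: tttcggcactggaggaaaatttgacatcat

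**Figure D3:**
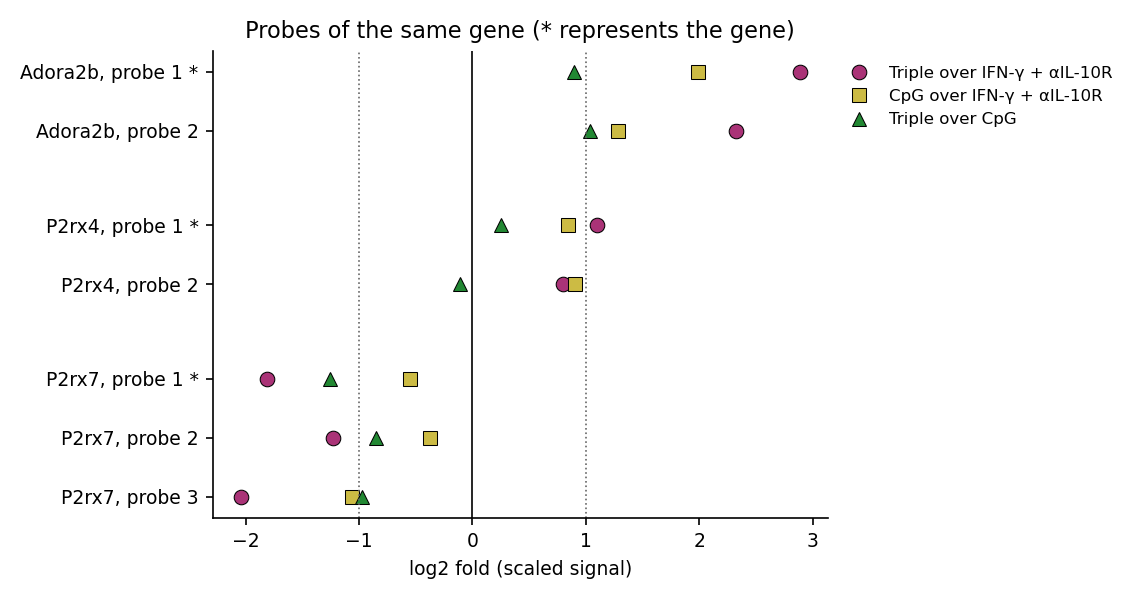
Log2 folds of each probe of Adora2b, P2rx4, and P2rx7, numbered from the brightest, in the 3 comparisons, with dotted lines at 2-fold and no error bars (1 array per condition). Probes of 1 gene keep the sign in every comparison except Triple against CpG for P2rx4, 0.25 and −0.11.

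P2ry6 encodes a G protein-coupled receptor for UDP that is known to promote phagocytosis in microglia. Its probe (chromosome 7, 108086149 to 108086208 on mm9, − strand) was printed at 10 spots, which allowed the noise within an array to be seen. The mean signals were 39379.5, 39322, and 31591, with an SD over spots of 0.02, 0.06, and 0.03 (log2). Before scaling, the ranges over spots were 38538 to 39971 with IFN-γ + αIL-10R and 35639.5 to 41576 with CpG, which overlapped. The unscaled range in Triple, 30175 to 33087, lay below both, and how far it lies from them depends on the scaling. The log2 folds were −0.28, −0.02, and −0.26 in Triple against IFN-γ + αIL-10R, CpG against IFN-γ + αIL-10R, and Triple against CpG. P2ry6 was thus inside 2-fold in every comparison, and the spots of 1 array are not replicates of a condition.

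Among the enzymes, Entpd1 encodes CD39, which hydrolyses ATP and ADP to AMP at the cell surface. Its probe (chromosome 19, 40816008 to 40816067 on mm9, + strand) gave 1609 with IFN-γ + αIL-10R, 287 with CpG, and 565 in Triple. CpG was 5.69-fold and Triple 2.78-fold below IFN-γ + αIL-10R (log2 folds −2.51 and −1.47). Triple was 2.05-fold above CpG, just past the threshold and inside it under 3 alternatives. RefSeq gives Entpd1 a pair of promoter windows, and each held the cAMP response core once on the opposite strand, 135 and 183 bases before its start. The 200 bases before the starts, chr19:40612166-40612365 and chr19:40659570-40659769 on the + strand, are shown with these letters in capitals.

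Entpd1, upstream start: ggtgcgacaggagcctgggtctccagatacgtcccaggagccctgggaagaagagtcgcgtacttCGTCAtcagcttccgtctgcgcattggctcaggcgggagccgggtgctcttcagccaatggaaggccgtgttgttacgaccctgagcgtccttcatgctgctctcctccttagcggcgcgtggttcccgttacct
Entpd1, downstream start: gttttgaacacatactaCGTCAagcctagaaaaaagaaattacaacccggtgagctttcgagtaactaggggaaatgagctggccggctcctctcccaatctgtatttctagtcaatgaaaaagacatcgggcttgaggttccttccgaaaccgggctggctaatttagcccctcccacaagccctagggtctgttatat

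Nt5e encodes CD73, which removes the last phosphate to yield adenosine. Its probe (chromosome 9, 88266616 to 88266675 on mm9, + strand) gave 6.11, 5.65, and 6.05, not well above background on any array, so no fold is given. Its promoter window held none of the motifs. A level below this limit cannot be seen on these arrays, on which the lowest signals well above background were 26.7, 23.8, and 26.3.

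Ada encodes adenosine deaminase, which converts adenosine to inosine. Its probe (chromosome 2, 163552581 to 163552640 on mm9, − strand) gave 7035 with IFN-γ + αIL-10R, 2283 with CpG, and 2152 in Triple. Triple was 3.19-fold and CpG 3.13-fold below IFN-γ + αIL-10R (log2 folds −1.67 and −1.65). Triple and CpG differed by a log2 fold of −0.03, less than the technical SD. The promoter window of Ada held 1 GAS match, 90 bases before the start, and 1 match to the NF-κB consensus, 137 bases before it. It was the only one of the 9 windows of the 7 genes with a match to either. Both are in capitals in the 200 bases upstream, chr2:163750240-163750439 on the − strand.

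Ada: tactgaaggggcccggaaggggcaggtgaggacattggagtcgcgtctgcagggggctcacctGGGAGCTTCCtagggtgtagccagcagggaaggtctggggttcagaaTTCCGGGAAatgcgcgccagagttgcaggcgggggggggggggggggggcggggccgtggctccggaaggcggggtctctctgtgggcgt

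The other genes of the pathway were read from lists of receptors, enzymes, transporters, and targets that hold 4 to 26 genes. The plot of counts shows how many of each list passed 2-fold in each comparison. Medians are over the genes detected in at least 1 array of a comparison, with bounds at their value. The counts stand against the shares of all detected genes that passed 2-fold, 6.59% higher and 9.3% lower in Triple against IFN-γ + αIL-10R, 5.03% and 5.86% in CpG against IFN-γ + αIL-10R, and 7.54% and 8.37% in Triple against CpG, and in lists this short 1 or 2 genes are no result about the list.

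**Figure D4:**
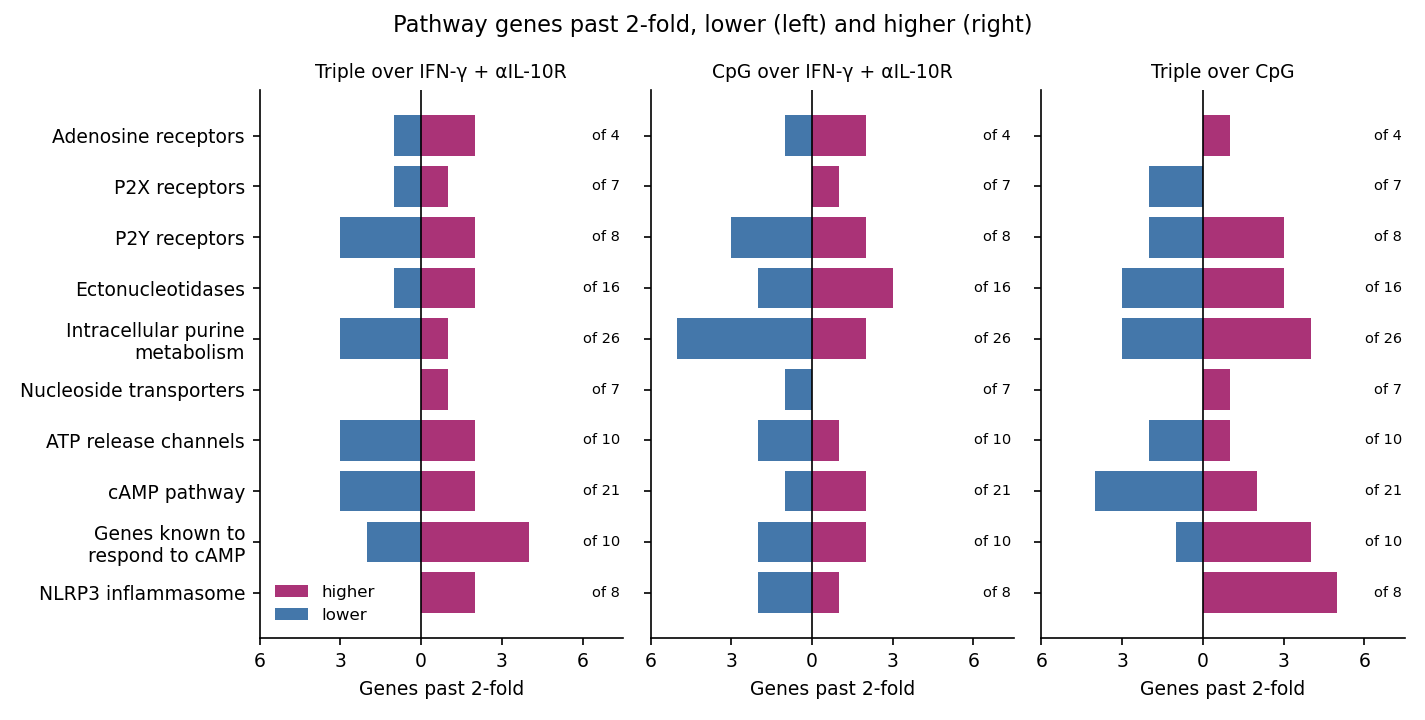
Number of genes past 2-fold in each of 10 pathway lists, lower to the left and higher to the right, with the size of the list at the right edge. In Triple against CpG, 5 of 8 NLRP3 inflammasome genes are higher and none lower, and 4 of 21 cAMP pathway genes are lower and 2 higher.

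Of 7 P2X receptors, 1 was higher and 1 lower in Triple than with IFN-γ + αIL-10R, P2rx4 and P2rx7 themselves (median log2 fold 0.48 over the 6 detected). P2rx3, a channel best known from sensory neurons, gave 140.4, 435, and 197, a 3.05-fold higher signal with CpG. It is uncertain, because of its other 3 probes 2 were not well above background on any array and the remaining dim probe gave a log2 fold of 0.52. Of 8 P2Y receptors, 2 were higher and 3 lower in Triple than with IFN-γ + αIL-10R (median −0.28). P2ry2, a receptor for ATP and UTP, gave 383, 2721, and 1855, higher than with IFN-γ + αIL-10R by log2 folds of 2.81 with CpG and 2.31 in Triple. The ADP receptor P2ry12 ran the other way, with 419.7, 94.2, and 38.6, 10.6-fold lower in Triple and 4.52-fold lower with CpG. P2ry14, which binds UDP-sugars, gave 9625, 1599, and 4688, 6.11-fold lower with CpG and just over 2-fold lower in Triple, a call that was lost under 2 of the 5 other scalings. P2ry1, another ADP receptor, gave 74.1, 190.2, and 7.29, the last not well above background, so that Triple was at least 6.94-fold below CpG.

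The list of ectonucleotidases holds 16 genes, of which 10 were detected on at least 1 array. Compared with IFN-γ + αIL-10R, 2 were higher and 1 lower in Triple, and 3 were higher and 2 lower with CpG (medians −0.27 and 0.13). Cd38, which hydrolyses NAD, gave 131, 347, and 3029.8. Triple was 23.8-fold above IFN-γ + αIL-10R and 9.10-fold above CpG. Its paralog Bst1 gave 7609.8, 1462, and 11243, so that CpG was 5.28-fold below IFN-γ + αIL-10R and Triple the highest, and the dimmer Bst1 probe gave log2 folds of the same sign. Enpp2, the enzyme autotaxin that makes lysophosphatidic acid, gave 164 with CpG and 105 in Triple, at least 6.06-fold and 4.03-fold above IFN-γ + αIL-10R, where it was not well above background. Enpp1 was dim, with 33.6, 70.3, and 10.5, the last not well above background.

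Inside cells, all 3 arrays detected 24 of 26 genes of purine metabolism. Compared with IFN-γ + αIL-10R, 1 was higher and 3 lower in Triple, Ada among the latter, and 2 were higher and 5 lower with CpG (medians −0.30 and −0.17). Adk, adenosine kinase, which removes adenosine by phosphorylating it to AMP, gave 4424, 15442, and 4627. With CpG it was 3.44-fold above IFN-γ + αIL-10R, where Ada was 3.13-fold below, and its dimmer probe gave a log2 fold of 1.80. The cytosolic nucleotidase Nt5c3 was 3.50-fold lower with CpG (24419, 7077, and 15682). Among adenylate kinases, Ak1 was 4.30-fold lower in Triple than with IFN-γ + αIL-10R (457, 446, and 104), and Ak4, a mitochondrial member, was 2.76-fold higher (109, 45.8, and 292). The other Ak4 probe was not well above background on any array, so that the call of Ak4 rests on 1 probe.

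Of 7 nucleoside transporters, 1 passed 2-fold in Triple against IFN-γ + αIL-10R. This was Slc28a2, the sodium-dependent carrier CNT2 for purine nucleosides, with 7384, 12522, and 34376, 4.77-fold above IFN-γ + αIL-10R and 2.86-fold above CpG. Slc29a3, the lysosomal equilibrative transporter, was 2.17-fold lower with CpG than with IFN-γ + αIL-10R (1449, 679, and 867). Of 10 genes for ATP release, 2 were higher and 3 lower in Triple than with IFN-γ + αIL-10R (median −0.18). Panx1, the pannexin channel that releases ATP, gave 6121, 3106, and 1713, 3.49-fold lower in Triple. With CpG it was just over 2-fold lower, and inside 2-fold under 4 of the 5 other scalings. Slc17a9, which loads ATP into vesicles, was 2.51-fold lower in Triple (607, 697, and 236). Lrrc8c, a subunit of volume-regulated anion channels, was 3.40-fold higher in Triple than with IFN-γ + αIL-10R and 10.6-fold higher than with CpG (687, 223, and 2280.5). Gja1, connexin 43, was at least 7.12-fold higher in Triple than with IFN-γ + αIL-10R, where it was not well above background (6.88, 101, and 185).

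Below the adenosine receptors, 2 of 21 genes of the cAMP pathway were higher and 3 lower in Triple than with IFN-γ + αIL-10R (median −0.14). These are 2 and 3 of the 17 detected, next to 6.59% and 9.3% of all detected genes, and nothing is read from them about the pathway as a whole. Pde4b, a phosphodiesterase that degrades cAMP and is known to be induced by TLR ligands, gave 399.8, 1110.2, and 3079, 7.89-fold higher in Triple, and a pair of its other 3 probes gave log2 folds of 2.92 and 2.72. The remaining Pde4b probe was not well above background on any array. Prkar2b, a regulatory subunit of protein kinase A, was 2.28-fold higher in Triple and 3.17-fold higher with CpG (1545, 4974, and 3438). Rapgef3, the exchange factor Epac1 that binds cAMP, was 5.86-fold lower in Triple (493, 293, and 82.1). Crem, which also encodes the repressor ICER, gave 1322, 369, and 2033, 5.73-fold higher in Triple than with CpG. Of 10 genes known to respond to cAMP, 4 were higher and 2 lower in Triple than with IFN-γ + αIL-10R (median 1.15). Nr4a2, an orphan nuclear receptor, was 7.53-fold higher (62.4, 79.4, and 459), and Il10 8.03-fold (1271, 3117, and 9957). The dimmer Nr4a2 probe gave a smaller log2 fold of 1.90 (38.5, 26.2, and 140.3), and was not well above background with CpG. Thbs1, thrombospondin 1, was 29.6-fold higher (189, 116, and 5446). Vegfa, by contrast, was highest with IFN-γ + αIL-10R (2541, 321, and 1697), and CpG was 8.02-fold lower. These genes respond to many other signals, TLR ligands among them, and cAMP was not measured.

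All 8 genes of the NLRP3 inflammasome list, which shares Il1b with the list for TLR ligands, were detected. In Triple, where P2rx7 was lowest, 5 were higher than with CpG and none lower (median log2 fold 1.31), next to 7.54% and 8.37% of all detected genes, and 2 were higher than with IFN-γ + αIL-10R and none lower (median 0.45), next to 6.59% and 9.3%. Nlrp3, the sensor, gave 298, 111, and 658, 2.26-fold above IFN-γ + αIL-10R and 6.15-fold above CpG. Il1b, the cytokine that the inflammasome processes, gave 25.5, 1445, and 30090.1, with the first not well above background. Casp4 was 2.82-fold (24139, 14031, and 38006) and Il18 2.65-fold (2928, 861, and 2192) above CpG.

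For the 6 members detected on every array whose span exceeded 1 (log2), the genes nearest in pattern were found among 11937 genes with a symbol. Distance was Euclidean, over 3 arrays after subtracting each gene's mean, and with 3 points many genes come close. The nearest were Pilrb1, Suco, and Mllt6 for Adora2b (0.09 to 0.14 log2 units), E130119H09Rik, BC051226, and Neu3 for Adora3 (0.03 to 0.06), and Tssk5, Gm10371, and Ist1 for P2rx4 (0.02 to 0.04). For P2rx7 they were 8430410A17Rik, Sgsm2, and Shb (0.0045 to 0.05), for Entpd1 Cd300lf, Serpinb6b, and Aig1 (0.03 to 0.14), and for Ada Derl3, Axl, and Aim2 (0.11 to 0.13).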

How the data were processed

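RNA of 3 BMDM conditions was hybridized to 1-colour Agilent arrays, 1 per condition. The authors deposited, per array, Feature Extraction output (version 10.10.1.1), whose processed signal is a background-subtracted, detrended intensity. The authors also deposited a log2 table of the same arrays, which differs from the log2 of the processed signal by a constant for each array. Its normalization is not given in the sources used here. Probe positions are the array's mm9 annotation, and gene models of that build were not used here.

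Control spots and spots marked as outliers were left out, spots of a probe were averaged as log2, and the 75th percentile was subtracted from each array, taken over the 22378 probes detected on every array (on average 44.2% of probes were well above background). A gene was its probe with the highest mean. Dimmer signals were set to the array's lowest signal well above background, which makes their folds lower bounds. A mark on the local background did not remove a spot, and a probe counted as well above background only if all its spots were. Both choices were made after values, that of Adora2a among them, had been seen. The members and lists were chosen with earlier results of these data known. Named were every member, up to 4 other genes of each list with the largest span among those past 2-fold, and the 3 genes nearest to a member in pattern. Adora1 and the marker genes were named to complete a list. The code was tested on simulated data. No p-value is given, because there was 1 array per condition, and the number of arrays limits the precision. Python 3.11.15, numpy 2.4.6, pandas 2.3.3, matplotlib 3.10.9, R 4.3.3, and limma 3.58.1 were used.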

Additional observations from a re-analysis of the deposited data

How the results depend on the processing

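No paired analysis was possible because no condition had more than 1 array. The alternatives were 5 other scalings (the authors' table among them), normexp background correction, no filter on dim probes, both arrays well above background, the mean of a gene's probes, outlier spots kept, other thresholds, and, chosen after seeing the data, spots with a marked local background also left out.

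Of 24 folds of the 9 genes, 15 were past 2-fold. Each fold was followed under up to 10 alternatives, which leave out the other thresholds and the demand for both arrays well above background. Under all of these that gave a value, 11 of the 15 stayed past 2-fold. None of the 15 changed sign, and none of the 9 others came past 2-fold. The exceptions were Adora3 in Triple against IFN-γ + αIL-10R (−0.98 with normexp), Adora3 in CpG against IFN-γ + αIL-10R (−0.95) and P2rx4 in Triple against IFN-γ + αIL-10R (0.95) with the mean of the probes, and Entpd1 in Triple against CpG, which was 0.98 without scaling, 0.97 relative to Actb, and 0.88 with normexp. Adora2a in Triple against IFN-γ + αIL-10R ranged from 3.61 (normexp) to 6.71 (no filter). The count higher with CpG than with IFN-γ + αIL-10R was 1 in place of 2 when both arrays had to be well above background and when spots with a marked local background were left out, since Adora2a then dropped out. For the same reason, the count higher in Triple than with IFN-γ + αIL-10R was 2 in place of 3 under these settings. With the mean of the probes and at 3-fold that count was also 2, because P2rx4 dropped out. The count higher in Triple than with CpG was 1 in place of 2 at 3-fold, without scaling, with normexp, relative to Actb, and without the spots with a marked local background. At 3-fold the count lower in Triple than with CpG was 0, and that lower than with IFN-γ + αIL-10R was 2 (P2rx7 and Ada), as follows from the threshold.

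The median of all genes in Triple against IFN-γ + αIL-10R moved from −0.04 to 0.07 when all probes set the 75th percentile and to 0.06 in the authors' table. Over all genes, higher and lower calls in that comparison were 1237 and 1745, and 2623 and 3184 without the filter. With CpG they were 954 and 1111, and then 2474 and 2563, and in Triple against CpG 1435 and 1593, and then 2869 and 3130. Normexp gave 832 and 1151, 584 and 735, and 983 and 969. At 1.5-fold they were 2523 and 3250, 2129 and 2433, and 2721 and 3133, and at 3-fold 645 and 855, 439 and 536, and 733 and 731. No call of a list gene turned direction under another scaling, and 8 genes lost a call at the threshold under at least 1 scaling. Signals under 100 are the least precise.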
